A study of Drosophila melanogaster with 2 samples.

Results

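The 10 glycolytic enzyme genes of Drosophila melanogaster examined here were Pgi, Pfk, Ald1, Tpi, Gapdh1, Gapdh2, Pgk, Pglym78, Eno and Pyk, out of 13945 protein-coding genes on the 6 chromosome arms analysed. They were taken by name, and each was followed over its gene body and 2 kb either side. The data are chromatin immunoprecipitation and sequencing (ChIP-seq) of the BTB domain zinc finger protein CG12236, carried C-terminally tagged with enhanced green fluorescent protein (eGFP) by a transgenic fly line and pulled down through the tag with an anti-GFP antibody. Whole embryos, 0 to 24 h old and of both sexes pooled, gave a single group of 2 biological replicates, numbered 1 and 3, and no untreated or mutant group was analysed. Because each sample is a whole embryo collection spanning all of embryogenesis, strong contact in few cells and weak contact in many cannot be told apart, and the fusion protein comes from 1 transgenic line.

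Each replicate has a list of 30000 regions, and so do the pooled replicates. The authors thresholded the pooled list by irreproducible discovery rate (IDR), a measure of how well ranks repeat, and kept its 2426 strongest regions. The signal of a region is the authors' own enrichment value. Its scale is not given in the labels or headers, and it is compared only within a list, where rank 1 is the strongest. Signals ran from 16.9 to 1067 in the pooled list and from 70.5 upward in the IDR list. The weakest signal was 8.5 in replicate 1 and 11.4 in replicate 3, and the read depth behind any list is unknown. The replicates share their control alignment, and whether it adds to their likeness was not tested. Positions are on dm6, and those along a gene are counted from its outermost annotated start in the direction of transcription, negative upstream.

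Glycolysis splits glucose into pyruvate in the cytosol and yields ATP and NADH. In its upper part glucose phosphate isomerase, phosphofructokinase, aldolase and triose phosphate isomerase turn a hexose into triose phosphates. In its lower part glyceraldehyde phosphate dehydrogenase (GAPDH), phosphoglycerate kinase, phosphoglycerate mutase, enolase and pyruvate kinase carry the carbon on to pyruvate and make the ATP. In fly embryos, expression of the pathway is known to rise together in mid-embryogenesis under the estrogen-related receptor ERR. Steps are numbered here with hexokinase, which is not among the 10 genes, as the first.

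Only 3 of the 10 genes held IDR regions in their windows, Gapdh2, Pgk and Eno, all of the lower part. The same windows around all protein-coding genes held an IDR summit in 20.8% of genes, and in 20.5% of the 6861 genes between 1480 and 7718 bp long, the range spanned by the 10. The same 3 genes had an IDR summit within 500 bp of one of their annotated starts, against 10.2% of protein-coding genes. These counts of 3 in 10 rest on few genes and were not tested against the background. In all, the windows held 9 IDR regions, 5 at Pgk, 2 at Gapdh2 and 2 at Eno. Every one of the 9 had a summit within 200 bp of its own in both replicate lists. The IDR list was chosen by repeatability between these same replicates, so such matches are favoured by that choice. The share of all IDR regions matched in this way is not given here, so the count says nothing particular about these genes.

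The strongest region was at the promoter of Gapdh2, one of a pair of genes for GAPDH, which oxidises glyceraldehyde phosphate and makes NADH. Gapdh2 (FBgn0001092) lies on the X chromosome at 15868145 to 15869661 on the forward strand. The region, X 15867844 to 15868120, had its summit at position -170 and ranked 155 in the pooled list with a signal of 263. In replicate 1 the matching summit lay 4 bp away and ranked 225 with a signal of 85.3. In replicate 3 it lay at the same base and ranked 142 with a signal of 177. Both replicates thus placed it in the top 225 of their 30000 regions. No other protein-coding gene starts within 500 bp of this summit, and the closest start of a neighbour, that of CG16952, is 1972 bp from a Gapdh2 start. The region is 277 bp wide in the pooled list, where all other regions in the windows of the 10 genes share a width of 424 bp. The matching region is 245 bp wide in replicate 3. In replicate 1 it is 404 bp wide, the width of every region listed there at these genes. Its whole sequence (chrX:15867844-15868120, dm6, forward strand, from the RefSeq Release 6 assembly) is shown because it is the strongest region of the 10 genes and lies at an unshared promoter. The summit is base 132. Capitals mark matches to 8 short motifs listed further on, here TATAAA (also as TTTATA on the other strand), ACGTG (read as CACGT) and GAGAG.
Gapdh2 promoter region: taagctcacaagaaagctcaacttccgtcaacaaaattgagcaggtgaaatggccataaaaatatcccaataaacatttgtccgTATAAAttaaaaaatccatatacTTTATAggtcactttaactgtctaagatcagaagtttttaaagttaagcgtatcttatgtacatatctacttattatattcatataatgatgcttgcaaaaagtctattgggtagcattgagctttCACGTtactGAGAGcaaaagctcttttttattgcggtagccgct

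A second IDR region of the Gapdh2 window, X 15870735 to 15871158, lay beyond the gene at position 2802. Its pooled signal of 111 put it at rank 1072, and the replicates at 1214 (replicate 1, signal 41.2) and 1197 (replicate 3, signal 67.3). Its nearest start was that of CG16952, 764 bp before the summit, so it falls inside that neighbour. A weaker pooled-list region at rank 4988 (signal 46.3) lay at -138 bp from the CG16952 start. Of the 4 pooled-list regions in the Gapdh2 window, 3 were therefore nearest to CG16952.

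Pgk (FBgn0250906) encodes phosphoglycerate kinase, which makes the first ATP returned by the pathway. It lies at 2L 2746880 to 2753068 on the reverse strand, has 5 annotated starts (at 0, 2079, 2921, 3755 and 4581 bp) and overlaps Bacc, a gene on the forward strand whose closest start is 165 bp from one of Pgk. Its window held 13 pooled-list regions, more than in 96.8% of protein-coding genes, and 5 IDR regions. Only 0.229% of protein-coding genes, 32 in all, held 5 or more, a limit chosen after the count at Pgk was seen.

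The strongest region at Pgk lay at position -1660 (2L 2754516 to 2754939) and ranked 452 with a signal of 171. Replicate 1 had it at rank 852 (signal 48.4) and replicate 3 at rank 369 (signal 120). It is 1495 bp past the start of Bacc and so inside that gene. The next, in an intron at position 1017 (2L 2751839 to 2752262), ranked 458 with a signal of 170. Replicate 1 had it at rank 330 (signal 73.5) and replicate 3 at rank 520 (signal 103), so the replicates put these regions in opposite orders. A further region, at position 817, overlapped it and ranked 2215 (signal 74.4), with ranks of 3722 in replicate 1 (signal 24.0) and 1499 in replicate 3 (signal 58.8). Both intronic summits lie before a Bacc start, at -394 and -194 bp. These 3 regions are nearest to Bacc and cannot be credited to Pgk alone.

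The other 2 IDR regions at Pgk lay just before internal Pgk starts. The region at position 2675 (2L 2750181 to 2750604) had its summit at -246 bp from the start at 2921. It ranked 976 with a signal of 116, 792 in replicate 1 (signal 50.1) and 1207 in replicate 3 (signal 67.0). The region at position 4341 (2L 2748515 to 2748938) had its summit at -240 bp from the innermost start at 4581. It ranked 1621 with a signal of 89.2, 2056 in replicate 1 (signal 31.9) and 1462 in replicate 3 (signal 59.7). Within the strongest 2426 of each replicate list, Pgk had 4 regions in replicate 1 and 6 in replicate 3. The 121 bases centred on both summits are shown on the strand of Pgk, since they are the regions that Pgk starts lie closest to. Capitals in the second mark CACTGTGC and GAGAG, while the first held none of the 8 motifs. The first is chr2L:2750333-2750453 and the second chr2L:2748667-2748787, both dm6, reverse strand.
Pgk region at 2675: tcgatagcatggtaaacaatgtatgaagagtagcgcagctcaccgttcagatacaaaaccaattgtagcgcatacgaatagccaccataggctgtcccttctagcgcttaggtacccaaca
Pgk region at 4341: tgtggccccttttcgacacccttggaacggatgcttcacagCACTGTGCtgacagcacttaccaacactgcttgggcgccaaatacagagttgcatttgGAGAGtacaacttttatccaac

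Eno (FBgn0000579) encodes enolase, which forms phosphoenolpyruvate, and lies at 2L 1724768 to 1729636 on the reverse strand with starts at 0, 1173 and 1919 bp. Its stronger IDR region was again inside the gene, in an intron at position 1662 (2L 1727762 to 1728185), with its summit at -257 bp from the innermost start. It ranked 735 with a signal of 136, 417 in replicate 1 (signal 66.2) and 1101 in replicate 3 (signal 69.8). The other lay at position -164 (2L 1729588 to 1730011) and ranked 2129 with a signal of 76.5. It was at rank 1993 in replicate 1 (signal 32.3) but at 2862 in replicate 3 (signal 40.5), outside the strongest 2426 there. That summit is closer to CG31937, which is transcribed the other way from a start 251 bp from that of Eno, and lies at -87 bp from it, so the region belongs to a shared promoter. Rrp40, on the forward strand, overlaps the Eno body. Its start is 269 bp from one of Eno, and no IDR summit lay within 500 bp of an Rrp40 start. Another region, 6497 bp from the Eno start, missed the IDR list at rank 3507 (signal 56.6) and is nearest to Rim2. The 121 bases centred on the intronic summit (chr2L:1727914-1728034, dm6, reverse strand) are shown for comparison with those of Pgk, and none of the 8 motifs occurs in them, the nearest being GAGAG 65 bp from the summit.
Eno region at 1662: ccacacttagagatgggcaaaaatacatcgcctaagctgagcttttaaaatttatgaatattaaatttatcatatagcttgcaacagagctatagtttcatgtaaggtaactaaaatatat

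All 5 IDR summits within 500 bp of a start of these genes lay upstream of it, between -257 and -164 bp: 1 at Gapdh2, 2 at Pgk and 2 at Eno. Over all 1100 IDR summits within 500 bp of any protein-coding start, 79.0% lay upstream of the nearest start and 16.2% fell in that same range, which was set after the positions were seen. The measures differ, since the 5 are placed from starts of these genes and the 1100 from the nearest start of any protein-coding gene. By the latter rule the Eno summit at -164 bp lies at -87 bp from CG31937, outside the range. Of the 9 IDR summits, 4 were in introns, 3 upstream of the gene, 1 in an untranslated exon, 1 downstream and 0 in coding sequence. Counting each summit only for the gene with the nearest start, Gapdh2, Pgk and Eno still had at least 1 each, where 11.4% of protein-coding genes do.

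**Figure D1:**
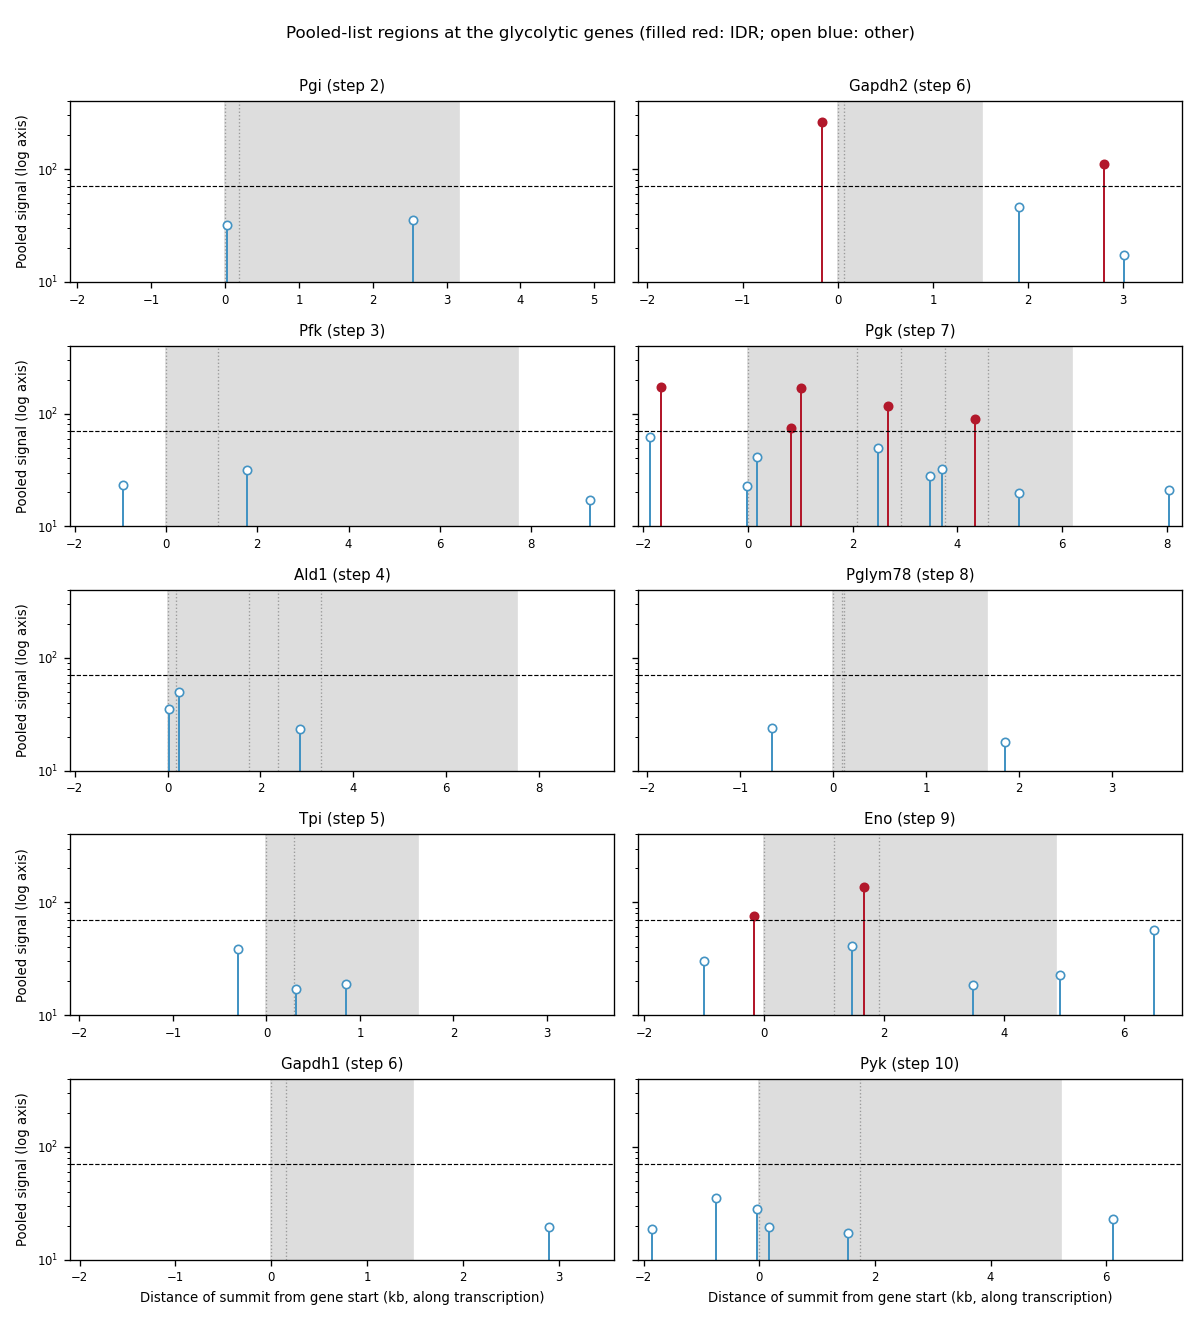
Pooled-list regions in the window of each gene, with the distance of the summit from the gene start in kb on the horizontal axis and the pooled signal on a log axis. Grey marks the gene body, dotted lines its annotated starts, filled red points IDR regions, open blue points other regions and the dashed line the weakest IDR signal of 70.5. Red points appear at Gapdh2, Pgk and Eno, and Gapdh1 has a single region, past its end.

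The 8 motifs were searched on both strands within 100 bp of the 9 IDR summits, and none of them contains another, although TCAAGGTCA and GGTCACAC share the letters GGTCA. The GAGA element GAGAG was at 3 of the 9, against 25.0% of all IDR summits and 24.1% of all pooled-list summits. TATAAA was at 4 of the 9, against 29.6% and 21.2%. The E-box CAGCTG of core promoters and the hypoxia factor core ACGTG were at 1 each, against 9.81% and 14.8% of IDR summits. The DNA replication-related element TATCGATA, the core promoter word GGTCACAC and the ERR element TCAAGGTCA were at 0 of the 9, and at 3.30%, 1.98% and 0% of all IDR summits. CACTGTGC, a word picked out earlier on the same data, was at the Pgk summit at position 4341, 12 bp from it at its nearer end, against 4.82% of IDR summits and 1.86% of pooled-list summits. Matches are letters in a window and not sites of binding. GC content of these 201-base windows ran from 27.9% at the intronic summit of Eno to 51.2% at the Pgk summit at position 817, around a median of 36.8% for all IDR summits.

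The duplicated GAPDH genes stood at opposite ends of the pathway's range. Gapdh1 (2R 7791901 to 7793380, reverse strand) is 1480 bp long and Gapdh2 1517 bp, and each has 2 annotated starts. The window of Gapdh1 held 1 pooled-list region, at rank 23917 with a signal of 19.5 and a -log10 q value of 0.236, against 263 and a saturated 3.82 for Gapdh2. That region lay at position 2899, past the end of Gapdh1 and 113 bp after the start of CG12824, and neither replicate had a summit within 200 bp of it. Replicate 1 listed other regions at Gapdh1, at position 567 in its coding exon (rank 14136, signal 12.9) and at position 1852 (rank 16102, signal 12.2). Replicate 3 listed none among its 30000, the weakest of which had a signal of 11.4. The strongest Gapdh2 region thus had 13.5 times the signal of the strongest at Gapdh1 in the pooled list and 6.59 times in replicate 1. In replicate 3 no ratio can be given. With 1 value per replicate, the difference was not tested.

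The pair also differs in its surroundings. The start of Gapdh1 is 245 bp from that of PolZ1, a gene transcribed the other way, whereas Gapdh2 shares its promoter with no annotated protein-coding gene. Gapdh2, the gene with the higher signal, is X-linked and Gapdh1 is autosomal. A pool of both sexes carries fewer X than autosome copies on average, and the part of copy number in the difference was not tested. In the 300 bases around the outermost start (250 before, 50 after), both held TATAAA, as did Pgi and Tpi and 45.8% of all promoters. Only Gapdh2 of the 10 held ACGTG there, against 23.2% of promoters. GAGAG was in the promoters of Gapdh2, Pgk and Eno and in those of none of the other 7 genes, against 29.7% of promoters, and these are also the genes with IDR regions. That co-occurrence was noticed after the values were seen and was not tested. By site it varied. At Eno, GAGAG lay within 100 bp of the IDR summit at position -164. Neither Gapdh2 IDR summit had GAGAG within 100 bp, although the promoter region shown above holds it further from its summit. Pgk had no IDR summit within 500 bp of its outermost start. The E-box CAGCTG was at Pgk, Eno and Pglym78 (17.7% of promoters), and TATCGATA, GGTCACAC, TCAAGGTCA and CACTGTGC were at none of the 10 (9.36%, 7.70%, 0.122% and 1.49%).

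The upper part of the pathway had regions in the pooled list but none in the IDR list. Ald1, the aldolase gene (3R 26254069 to 26261591), came closest, with a region at position 241 in an untranslated exon (3R 26261138 to 26261561) at rank 4464 and a signal of 49.5. It ranked 6684 in replicate 3 (signal 24.9), and the closest replicate 1 summit, 137 bp away, ranked 3788 (signal 23.8). All 3 of the Ald1 regions lay within 500 bp of one of its 5 starts. Tpi, the triose phosphate isomerase gene (3R 30132981 to 30134599), had its strongest region at position -300 at rank 7036 (signal 38.4). That region was much higher in replicate 3, at rank 5605 (signal 27.3), than in replicate 1, at rank 24399 (signal 9.67). It lies beyond the 5′ end of Tpi and inside the adjacent AdoR gene body, whose own starts are far away.

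Pgi, the glucose phosphate isomerase gene (2R 8910900 to 8914069), held 2 pooled-list regions. The stronger, at position 2547 in coding sequence, ranked 8170 with a signal of 35.3, and both replicates had a summit near it (rank 11661, signal 14.2 in replicate 1, and rank 8030, signal 22.8 in replicate 3). The other was at position 19, ranked 9647 (signal 32.2), and is shared with the opposite start of lin, 455 bp away. Pfk, the phosphofructokinase gene (2R 10109740 to 10117457) and a main control point of the pathway, had no pooled-list summit within 500 bp of a start. Its strongest region lay at position 1768 in coding sequence, at rank 9964 with a signal of 31.6. Replicate 1 placed it at rank 10004 (signal 15.3) and replicate 3 at rank 29323 (signal 11.6), close to the end of the list.

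The remaining genes of the lower part had no IDR regions. Pyk, which encodes pyruvate kinase and is spelled PyK in the annotation (3R 22367536 to 22372746), held 6 pooled-list regions, the strongest at position -758 with rank 8176 and a signal of 35.2. Replicate 3 had it at rank 5918 (signal 26.5), but replicate 1 had no summit within 200 bp, and the nearest start was that of Polr3F. At the Pyk start itself, a region at position -44 ranked 12515 (signal 27.9) with a replicate 1 summit at rank 7687 (signal 17.2) and none in replicate 3. Pglym78, a phosphoglycerate mutase gene (3R 29148248 to 29149901), held 2 weak regions, at position -663 (rank 16489, signal 24.1) and past its end (rank 27105, signal 18.1). Replicate 1 had a summit within 200 bp of neither. Pglym78, Pfk and Gapdh1 were the genes without a pooled-list summit within 500 bp of a start. The other 7 had one, against 51.8% of protein-coding genes, and all 10 had a region somewhere in the window, against 77.7%.

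Set in pathway order by the strongest pooled signal, the values were 35.3 for Pgi at step 2, 31.6 for Pfk at step 3, 49.5 for Ald1 at step 4 and 38.4 for Tpi at step 5. At step 6 they were 19.5 for Gapdh1 and 263 for Gapdh2, and then 171 for Pgk at step 7, 24.1 for Pglym78 at step 8, 136 for Eno at step 9 and 35.2 for Pyk at step 10. The upper 4 genes were alike and in the middle of the range, while the lower 6 held both its highest and its lowest values. IDR regions were at 0 of the 4 genes of steps 2 to 5, whose median strongest signal was 36.8, and at 3 of the 6 of steps 6 to 10, with a median of 85.6. Over all protein-coding genes 20.8% held such a region, so 0 of 4 and 3 of 6 are too few to tell the parts of the pathway apart, and the split was not tested. High and low genes were mixed in the lower part, so signal did not climb or fall steadily along the pathway. Gapdh2 came ahead of Pgk, and Pgk ahead of Eno, in the pooled list and in each replicate list, and all other genes were below the 2426th region in each. Below them the order differed between replicates. Tpi was the highest of the other 7 genes in replicate 3, at rank 5605, and the lowest of all 10 in replicate 1, at rank 17230.

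**Figure D2:**
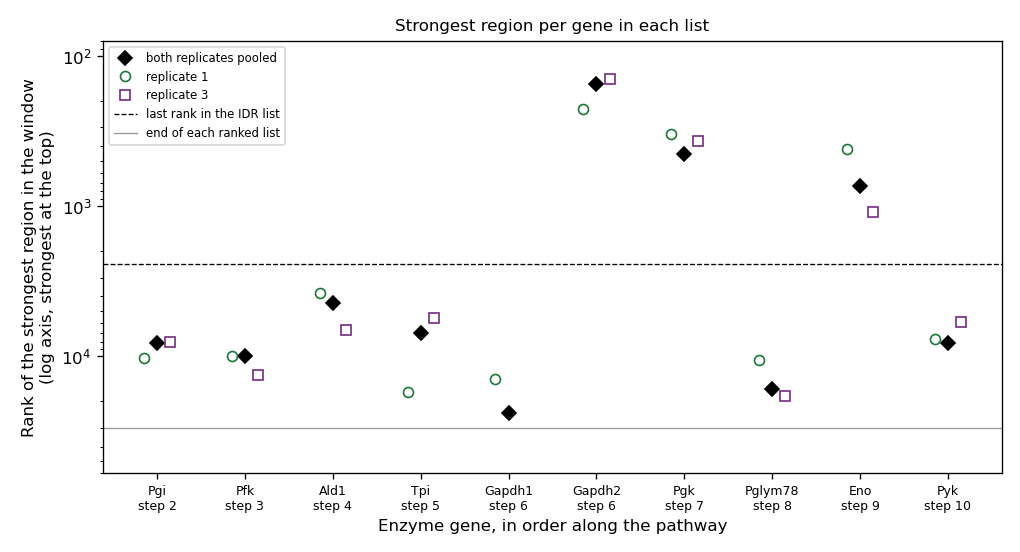
Rank of the strongest region in the window of each gene, on a log axis with the strongest at the top, in the pooled list (black diamonds), replicate 1 (green circles) and replicate 3 (purple squares). Gapdh2, Pgk and Eno sit above the dashed line at rank 2426 in all 3 lists, the other 7 genes sit below it, and Gapdh1 has no replicate 3 point because that list held no region in its window.

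Of the 44 pooled-list regions in the windows, 24 (54.5%) had a summit within 200 bp in both replicates, against 43.6% of all 30000 pooled-list regions. The IDR list was itself chosen by repeatability between these replicates, so the share was also taken without it. Of the 35 regions outside the IDR list 15 were matched in both (42.9%), against 38.7% of all such regions. A replicate summit could match more than 1 pooled region, as at overlapping regions of Pgk and Eno. For 7 of the 10 genes the strongest pooled region was matched in both replicates, and the exceptions were Gapdh1, Pglym78 and Pyk. Among the 7, those of Gapdh2, Pgk and Eno are IDR regions, chosen by repeatability. The share over the strongest regions of all protein-coding genes was not counted, so the 7 have no background. Some of the 44 overlap one another, and merged they make 35 separate stretches, 8 of them at Pgk.

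Read against all protein-coding genes by their strongest pooled signal in the same kind of window, Gapdh2 stood above 98.1%, Pgk above 94.8% and Eno above 92.1%. Ald1 was above 67.7%, Tpi above 56.9%, Pgi and Pyk above 53.3% each and Pfk above 48.5%. Pglym78 was above 36.0% and Gapdh1 above 27.4%, a share that includes the genes with no region at all. Among genes of 0.8 to 1.25 times their own length, the shares changed little for the 3 strongest (98.4%, 93.4% and 90.1%) but were lower for the longer genes Ald1 (54.9%), Pfk (28.6%) and Pyk (39.9%). They were higher for the short genes Tpi (62.8%), Pglym78 (40.8%) and Gapdh1 (31.9%), and Pgi was at 50.8%. The median number of pooled-list regions per window was 3 for the 10 genes and 2 for all.

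**Figure D3:**
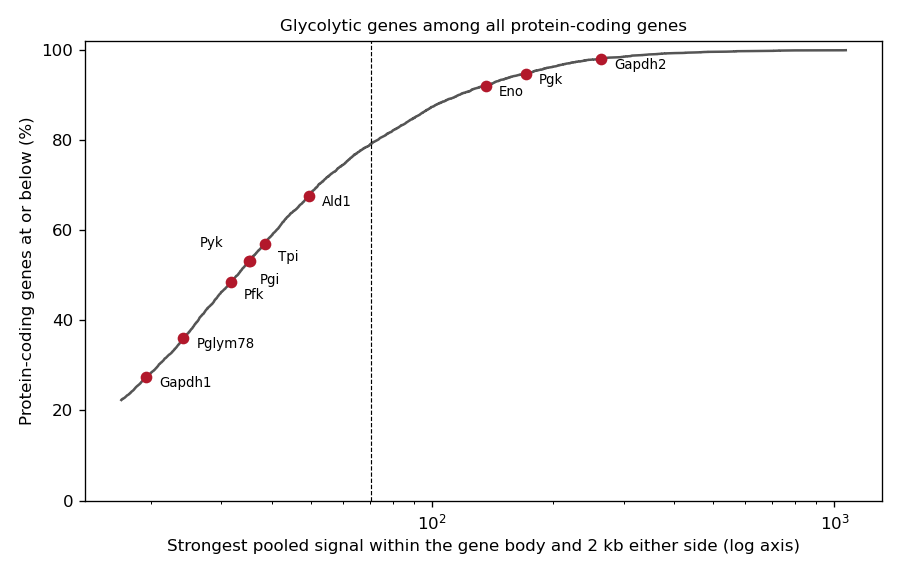
Cumulative share of all 13945 protein-coding genes, in percent, by the strongest pooled signal within the gene body and 2 kb either side, on a log axis. Red points are the 10 glycolytic genes, and the dashed line is the weakest IDR signal. Eno, Pgk and Gapdh2 lie right of the line at 92.1%, 94.8% and 98.1%, and the others lie left of it.

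The surrounding carbon metabolism was described from 6 lists with 71 genes, of which 70 were found in the annotation. An IDR summit lay within 500 bp of a start in 12 of the 70 (17.1%, against 10.2% of protein-coding genes) and in the gene window in 22 (31.4%, against 20.8%). The lists are small and the shares were not tested. Hexokinase, the entry enzyme, is encoded by several genes, and Hex-A (X 9585462 to 9585638, position -121, rank 251, signal 216) had the only promoter IDR region among 14 paralogs and entry enzymes. Its ranks were 331 in replicate 1 (signal 73.5) and 233 in replicate 3 (signal 146). Ald2 and Pglym87, paralogs of members, had no pooled-list region in their windows. The Pgk paralog CG9961 and the Pyk paralog CG7069, which lie beside Pgk and Pyk, had no IDR region in their windows.

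In the branches around glycolysis, the strongest promoter region was that of CG8036, a transketolase gene of the pentose phosphate pathway (3R 8669233 to 8669508, -234 bp, rank 125, signal 293). Its ranks were 116 in replicate 1 (signal 107) and 113 in replicate 3 (signal 189), ahead of Gapdh2 in both. Taldo, for transaldolase, was the other of the 2 in 7 genes of that list (rank 1924, signal 81.1). Of 9 glycogen and trehalose genes, Pgm1, for phosphoglucomutase (3L 16128630 to 16128761, rank 449, signal 171), and GlyP, for glycogen phosphorylase (rank 1468, signal 93.7), had one. Of 11 genes of lactate, glycerol phosphate and gluconeogenesis, Ldh, for lactate dehydrogenase (3L 6262705 to 6263128, rank 1000, signal 115), and Gpdh1 (rank 1558, signal 91.1) did. Of 21 pyruvate dehydrogenase and citric acid cycle genes, Fum1 (rank 631, signal 147), mAcon1 (rank 1001, signal 115) and Idh3g (rank 1121, signal 108) did. Among 8 regulators, bigmax, whose product partners the sugar sensor Mondo (rank 848, signal 125), and ERR (rank 1812, signal 83.7) did. The ERR summit is closer to a start of Atg18a, 56 bp after it, and the mAcon1 summit to one of CG43345, at -71 bp, so neither can be credited to the listed gene alone. Replicates were uneven at bigmax (rank 6740 in replicate 1, 415 in replicate 3) and mAcon1 (3307 and 652). Taldo (2885 in replicate 1), ERR (2774 in replicate 1) and Gpdh1 (2533 in replicate 3) also fell outside the 2426 strongest regions of 1 replicate. As at the glycolytic genes, the strongest promoter summit of each of the 12 genes lay upstream of the closest start of that gene itself. Positions ran from -450 bp at GlyP to -10 bp at Gpdh1. Of all 1100 IDR summits within 500 bp of a protein-coding start, 79% lay upstream of the nearest one.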

How the data were processed

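ChIP-seq regions of CG12236-eGFP in 2 embryo replicates, labelled biological replicates 1 and 3, were read from the deposited narrowPeak lists on dm6. Chromatin was sonicated to 200 to 800 bp, per the labels. Per the file lists deposited with the samples, the authors derived the region lists from the replicate alignments and a control alignment. The signal of a region is the authors' own, on a scale that neither labels nor headers state. Their deposited -log10 q value saturates at the top and was not used for ranking. The deposited summit offset, a distance in bp from the region start, gave positions. The aligner, the caller and its settings, and the number of reads: not given in the sources used here. Lists on dm3 were not used.

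Ensembl release 115 annotation (BDGP6, dm6 coordinates) gave genes and starts. Pyk was matched to PyK, and 3 list genes to current symbols, through RefSeq synonyms. A region belonged to a gene if its summit lay in the gene body or 2 kb either side, and to a promoter within 500 bp of any annotated start. Replicate summits were matched within 200 bp. Sequences are the RefSeq Release 6 assembly (dm6), and 2R sequence is not shown. The 10 genes, the 6 lists and the motifs were chosen with earlier results of these data known. Named genes were the 10, other genes starting within 500 bp of an IDR summit in a window, Pglym87, Ald2, Hex-A, Hex-C and the up to 4 strongest promoter genes of each list. Further neighbours were named after their values were seen. No statistical test was made, since there is 1 group and the genes are too few, and the replicates describe the spread. Searches were tested on simulated data. Alternatives were other flanks, distances, overlap rules, thresholds and each replicate alone. Python 3.11.15, numpy 2.4.6 and matplotlib 3.10.9 were used.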

Additional observations from a re-analysis of the deposited data

How the results depend on the processing

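The count of 3 genes with an IDR region in the window was the same with a flank of 500 bp, in the strongest part of the IDR list, by region overlap, by nearest start (an alternative chosen after the data were seen) and in each replicate's 2426 strongest regions. With a flank of 5 kb it was 5, adding Pglym78 through a region at the Slbp start and Pyk through one at the Muted start. The promoter count of 3 became 2, without Pgk, within 200 bp of a start or with only the outermost start of each gene. The number of genes with any pooled region was 9 with a flank of 500 bp, without Gapdh1. The log2 ratio of Gapdh1 to Gapdh2, -3.75, was -2.72 in replicate 1 alone (without replicate 3), and had no value in replicate 3 alone or with a flank of 500 bp, where Gapdh1 had no region. The median rank of the strongest regions, 7603, was 2657 with a flank of 5 kb, where neighbouring genes enter, 5918 in replicate 3 alone, over the 9 genes other than Gapdh1, and 8846 in replicate 1 alone, over all 10. Matching within 100 bp left 6 of 7 genes matched in both replicates. Unknown depth, lists that end at 30000 regions and 2 replicates limit what an absent region can show. No paired analysis was possible because there is 1 group.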

Other observations

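Besides the 12 listed genes with a promoter region, 10 genes of the 6 lists had an IDR region in the window but not within 500 bp of a start, and were looked at after their values were seen. The strongest lay in the window of Hex-C, a hexokinase gene, at position 2564 (rank 19, signal 619), but at -148 bp from the start of the mitochondrial ribosomal protein gene mRpL41. The region in the window of SdhD, a succinate dehydrogenase subunit gene (rank 140, signal 272), was at -97 bp from the start of PTPMT1, and that in the window of SdhB (rank 971, signal 117) at -59 bp from CG15237. By contrast, the region in the window of Zw, which encodes the entry enzyme of the pentose phosphate pathway (X 19668466 to 19668729, rank 113, signal 301), lay 1358 bp inside the gene with a Zw start as the nearest, at -1112 bp. The region of sima, the hypoxia factor gene (rank 632, signal 147), also had its own gene's start as the nearest, 34509 bp into the gene and at -6700 bp.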
